A study of Homo sapiens with 44 samples.

Results

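Matrix proteases and their inhibitors are described here through 9 genes: the matrix metalloproteinases MMP1, MMP2, MMP14 and MMP15, the secreted proteases ADAMTS1 and ADAMTS15, and the tissue inhibitors of metalloproteinases TIMP1, TIMP2 and TIMP3. They were taken by gene symbol from the expression tables of 2 human cell lines, 9 of 25689 symbols in each table, and all 9 were found in both. The set was chosen by measured values of these data, the knockdown fold change of MMP2, the deepest fall in HEK293-GR cells, and the responses of ADAMTS1 and ADAMTS15 to dexamethasone (dex). Those values are therefore given as a description, without a test.

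The study asked how IRF2BP2, a transcriptional cofactor, bears on the answer of cells to dex, which activates the glucocorticoid receptor, and to the inflammatory cytokine tumour necrosis factor (TNF). Messenger RNA was sequenced from HEK293-GR cells, an isogenic Flp-In derivative of the embryonic kidney line HEK293 in which the glucocorticoid receptor is constantly expressed, and from A549, a lung adenocarcinoma line. HEK293-GR cells formed 4 groups: siIRF2BP2 with 100 nM dex, siNON with 100 nM dex, siIRF2BP2 with vehicle and siNON with vehicle. A549 cells formed 8 groups, siIRF2BP2 or siNON with 100 nM dex, 10 ng/ml TNF, both agents or vehicle. All RNA groups were kept in steroid-depleted medium with 20 nM of a pool of small interfering RNAs for 72 h, directed against IRF2BP2 (siIRF2BP2) or non-targeting (siNON), and then had 6 h of treatment, with ethanol as the vehicle. The same named pool was used in both lines. IRF2BP2 was also mapped by chromatin immunoprecipitation (ChIP) in HEK293-GR cells kept without steroid for 48 h and then given 100 nM dex or ethanol vehicle for 1 h.

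The HEK293-GR table had 3 libraries per group (12 of the 16 labelled samples, the other 4 not analysed here), with 18.2 to 28.5 M tags each. The A549 table had 1 pooled column per group (24 samples in 8 columns, 35.8 to 56.9 M tags), so A549 levels carry no error and its tests are those of the authors' deposited table. The series describes its replicates as biological without saying which cultures they came from. Targeting lowered IRF2BP2 to 12.7 ± 0.960 FPKM (fragments per kilobase, scaled to library size; mean ± SD, n = 3) with siIRF2BP2 under vehicle, against 22.9 ± 2.41 FPKM with siNON. For IRF2BP2 in A549 the authors' deposited table gave -0.66, -0.40 and -0.62 (log2) under dex, TNF and both, and -0.31 under vehicle. Of 9 markers of HEK293 cells 8 exceeded 1 FPKM in HEK293-GR cells, and all 9 markers of A549 cells did so in A549. The lists do not separate the lines fully: 6 of the HEK293 markers exceeded 1 FPKM in A549 per exon length, with summed levels of 464 to 593 FPKM against 135 to 199 FPKM in HEK293-GR cells, and 5 of the A549 markers did so in HEK293-GR cells, with 158 to 267 FPKM against 9710 to 15400 FPKM in A549. Of 9 blood, endothelial and fibroblast markers, HBA1 and PDGFRA exceeded 1 FPKM in HEK293-GR cells and CD14 did so in A549 per exon length. Their summed levels were 3.3 to 6.61 and 2.49 to 4.01 FPKM. Sums in the 2 lines are on unlike scales and do not rank the lines. The A549 values are FPKM on genomic span rescaled to exon length, and the tables were normalised separately. The densest gene reached 2.83 to 2.99 reads per base in HEK293-GR libraries and 142 to 326 in A549 columns.

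Matrix metalloproteinases are zinc-dependent enzymes that cut collagens and other matrix proteins. They are made as inactive precursors and are blocked by TIMPs, which bind the active site. The membrane-anchored MMP14, with TIMP2 as the bridge, is the classical activator of the MMP2 precursor at the cell surface, so an inhibitor also takes part in activation. ADAMTS proteases are secreted relatives that cut large proteoglycans such as versican. Glucocorticoids are known to hold back the inflammatory induction of MMP1, and TNF is one of its known inducers.

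The 250 bases before the start sites of the membrane-type proteases MMP14 and MMP15 are shown, read in the direction of the gene (RefSeq, build GRCh38.p14). These 2 genes moved in opposite directions with the knockdown in HEK293-GR cells. Whether the letters of these windows bear on that was not tested. The window of MMP14 is chr14:22836335-22836584 on the plus strand and that of MMP15 is chr16:58025504-58025753 on the plus strand. Capitals mark the GC box GGGCGG or its complement on the other strand, a motif bound by the SP family of factors.
MMP14: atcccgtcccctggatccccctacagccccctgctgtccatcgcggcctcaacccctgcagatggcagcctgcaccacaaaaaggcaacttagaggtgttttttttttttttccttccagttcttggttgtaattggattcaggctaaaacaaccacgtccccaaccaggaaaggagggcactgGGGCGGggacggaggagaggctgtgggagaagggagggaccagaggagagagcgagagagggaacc
MMP15: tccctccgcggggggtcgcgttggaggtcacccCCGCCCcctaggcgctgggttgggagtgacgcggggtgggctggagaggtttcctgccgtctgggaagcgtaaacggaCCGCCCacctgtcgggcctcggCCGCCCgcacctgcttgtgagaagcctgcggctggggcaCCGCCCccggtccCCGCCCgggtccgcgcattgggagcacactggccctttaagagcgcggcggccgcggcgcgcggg
The MMP14 window had 1 GC box and 56.8% G and C, and the MMP15 window had 5 GC boxes and 74.8% G and C. TIMP1 and TIMP3 had 2 and 5 GC boxes in their windows. For comparison, 42.6% of 35116 promoters of the same length held at least 1. A search on both strands for AGAACA, the core of the glucocorticoid receptor element, for the AP-1 element TGANTCA and for the E-box CACGTG found no match in these 4 windows. These letters occurred in 12.4%, 6.57% and 6.34% of all promoters. Promoters of MMP1, MMP2, ADAMTS1, ADAMTS15 and TIMP2 were not used here.

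In HEK293-GR cells with siNON and vehicle, levels spanned a wide range, given as FPKM per exon length (mean ± SD, n = 3). ADAMTS1 was highest at 60.2 ± 6.05, then TIMP1 at 50.8 ± 3.71 and TIMP2 at 16.2 ± 1.99. TIMP3 at 11.6 ± 1.15 and MMP15 at 10.9 ± 1.45 overlapped in their libraries, as did ADAMTS15 at 3.09 ± 0.568 and MMP2 at 2.80 ± 0.444. MMP14 stood at 0.597 ± 0.0574. MMP1, the interstitial collagenase, had 0 to 3 reads in every HEK293-GR library and did not pass the filter of 10 reads in 3 libraries, so 8 of the 9 members were fitted. The inhibitors were thus far more abundant at the RNA level than MMP2 and MMP14. With fewer reads came less precision: MMP14 had 25 to 117 reads per library, MMP2 had 27 to 235, and TIMP1 had 872 to 1122.

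In A549 the order differed, with levels rescaled from genomic span to exon length for siNON vehicle and no spread available. The rescaling is unequal between genes, from 72413 to 3648 bases for TIMP2 and from 4500 to 908 bases for TIMP1. The order may therefore depend on it, and the 2 tables were normalised separately. TIMP1 stood at 187 FPKM, TIMP2 at 66.9 and MMP15 at 6.36. ADAMTS15 at 1.11, MMP14 at 1.08 and MMP2 at 0.948 lay close together, and whether these neighbours differ could not be assessed. MMP1 stood at 0.352 and ADAMTS1 at 0.0649, from 38 and 17 pooled reads. ADAMTS1 was thus the highest of the 9 in HEK293-GR cells and, with TIMP3, among the lowest in A549. TIMP3, a matrix-bound inhibitor, had 0 to 7 reads in the pooled A549 columns and is not followed there.

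**Figure D1:**
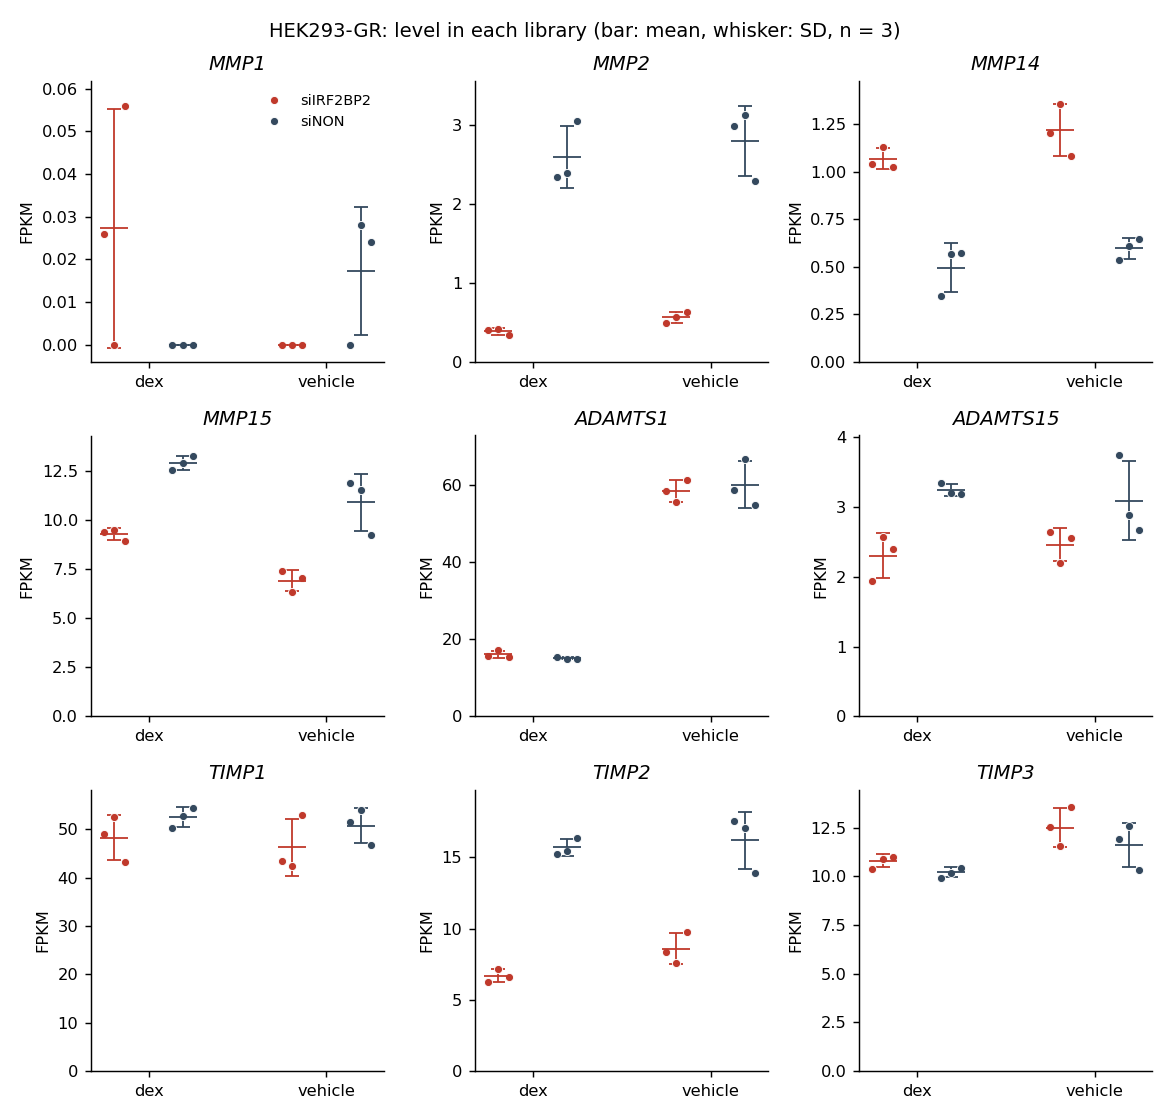
Level of each of the 9 genes (FPKM, linear axis) in HEK293-GR libraries under dex and vehicle. Points are libraries, red for siIRF2BP2 and dark for siNON, with mean and SD (n = 3). MMP2 and TIMP2 were lower and MMP14 was higher in every siIRF2BP2 library, while ADAMTS1 libraries separate by treatment and overlap between siIRF2BP2 and siNON.

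With IRF2BP2 knockdown in HEK293-GR cells the inhibitor TIMP2 and the membrane-type protease MMP15 fell and the membrane-type protease MMP14 rose. MMP2 was lower, the value for which it was chosen. Under vehicle, 1 of the 7 members tested rose and 2 fell, where 15.5% of 15594 genes passed the threshold (limma adjusted p under 0.05) in either direction. Under dex, 1 rose and 3 fell, where 39.7% of genes passed. The median log2 fold change of all genes was 0.03 under vehicle and 0 under dex. Of 9 HEK293 markers, 1 rose and 3 fell with the knockdown under dex and 0 rose and 2 fell under vehicle (limma), and their part in the results was not tested. In bulk RNA, fewer cells of a kind and less RNA per cell cannot be told apart.

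MMP2, gelatinase A, cuts denatured collagen and basement membrane collagen. It lies on chromosome 16 from 55513081 to 55540586 (build hg19, plus strand). Under vehicle it had 0.494, 0.568 and 0.634 FPKM in siIRF2BP2 libraries, against 2.98, 3.12 and 2.29 FPKM in siNON libraries. Under dex it had 0.401, 0.421 and 0.339 FPKM with siIRF2BP2, against 2.35, 2.39 and 3.05 FPKM with siNON. All 6 siIRF2BP2 libraries were below all 6 siNON libraries. The log2 fold change was -2.12 ± 0.16 (limma, ± SE) under vehicle and -2.46 ± 0.16 under dex. Its size depends on the pseudocount, with -1.27 and -1.37 at a pseudocount of 1 and -2.71 under dex at a pseudocount of 0.01. These are the values for which the gene was chosen, and no test is given.

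TIMP2, an inhibitor that also carries pro-MMP2 to MMP14, lies on chromosome 17 from 76849059 to 76921472 (hg19, minus strand). Under vehicle it had 8.37, 7.61 and 9.77 FPKM with siIRF2BP2, against 17.5, 17.1 and 13.9 FPKM with siNON. Under dex it had 6.26, 7.17 and 6.60 FPKM with siIRF2BP2, against 15.2, 15.4 and 16.4 FPKM with siNON. The groups did not overlap under either treatment, and the highest siIRF2BP2 library lay below the lowest siNON library. The log2 fold change was -0.90 ± 0.10 under vehicle (limma adjusted p = 3.8e-05) and -1.22 ± 0.10 under dex (limma adjusted p = 1.85e-06).

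MMP14, a membrane-type collagenase, lies on chromosome 14 from 23305742 to 23316808 (hg19, plus strand). Under vehicle it had 1.21, 1.36 and 1.08 FPKM with siIRF2BP2, against 0.535, 0.609 and 0.648 FPKM with siNON. Under dex it had 1.04, 1.13 and 1.03 FPKM with siIRF2BP2, against 0.345, 0.570 and 0.572 FPKM with siNON. Every siIRF2BP2 library was higher than every siNON library. MMP14 rose by 0.91 ± 0.17 on the log2 scale under vehicle (limma adjusted p = 0.00295) and by 0.99 ± 0.17 under dex (limma adjusted p = 0.000682).

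MMP15 is a related membrane-type protease, on chromosome 16 from 58059282 to 58080804 (hg19, plus strand). Under vehicle it had 7.39, 6.32 and 7.05 FPKM with siIRF2BP2, against 11.9, 11.5 and 9.22 FPKM with siNON. Under dex it had 9.39, 9.49 and 8.92 FPKM with siIRF2BP2, against 12.6, 12.9 and 13.3 FPKM with siNON. The siIRF2BP2 libraries were lower than the siNON libraries without overlap under both treatments. The log2 fold change was -0.64 ± 0.09 under vehicle (limma adjusted p = 0.000437) and -0.48 ± 0.09 under dex (limma adjusted p = 0.00133). MMP14 and MMP15 thus moved in opposite directions in the same libraries.

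Among the ADAMTS proteases, ADAMTS15, an aggrecan- and versican-cutting enzyme, had 2.64, 2.20 and 2.55 FPKM with siIRF2BP2 under vehicle, against 3.74, 2.88 and 2.67 FPKM with siNON. The siIRF2BP2 libraries were all lower, by a narrow margin, and the log2 fold change of -0.31 ± 0.14 did not pass (limma adjusted p = 0.146). It passed without siNON vehicle replicate 3, at -0.40 (limma adjusted p = 0.0406). Under dex it had 1.93, 2.56 and 2.39 FPKM with siIRF2BP2, against 3.35, 3.20 and 3.18 FPKM with siNON. That fall, -0.49 ± 0.14, passed (limma adjusted p = 0.0126), and the call ended without siIRF2BP2 dex replicate 1, at -0.37 (limma adjusted p = 0.0712). ADAMTS1 differed little with the knockdown, with log2 fold changes of -0.04 ± 0.08 under vehicle and 0.09 ± 0.08 under dex (limma adjusted p = 0.775 and 0.382).

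The other inhibitors did not pass the test. TIMP1, a soluble inhibitor of most MMPs, had log2 fold changes of -0.14 ± 0.10 under vehicle and -0.12 ± 0.10 under dex (limma adjusted p = 0.365 and 0.328). TIMP3 had 0.11 ± 0.08 and 0.08 ± 0.08 (limma adjusted p = 0.361 and 0.448). Both had overlapping groups in both comparisons. TIMP1 had 0.96 to 1.24 reads per base, where the densest gene of each library reached 2.83 to 2.99. Whether such an upper level limited the TIMP1 changes was not tested. TIMP1 overlaps SYN1 and TIMP3 overlaps SYN3 on the opposite strand, and TIMP2 overlaps KIAA1731NL on its own strand. The counting is not stated to use strand, so reads of these pairs cannot be told apart with certainty. The partners averaged 0.863, 0.631 and 0.0526 FPKM in HEK293-GR cells, well under the inhibitors.

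**Figure D2:**
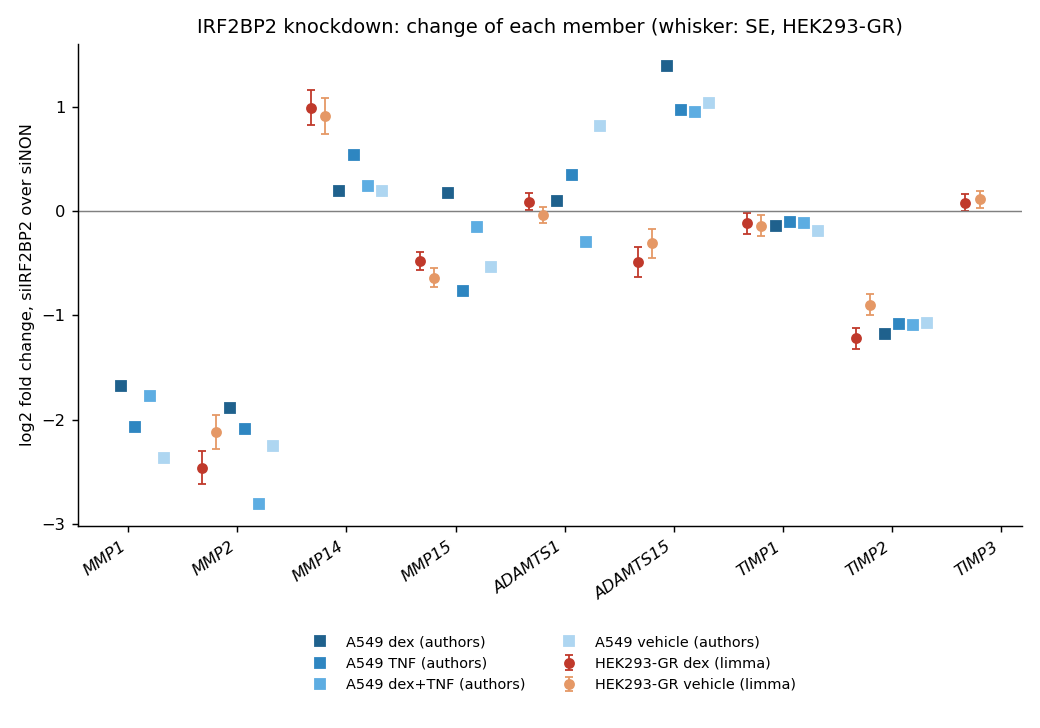
Log2 fold change of each gene with IRF2BP2 knockdown (siIRF2BP2 over siNON). Circles are HEK293-GR values from limma with SE, squares are A549 values from the authors' deposited table, without error, and TIMP3 in A549 and MMP1 in HEK293-GR are left out for low reads. MMP2 and TIMP2 lie below 0 in both lines, and ADAMTS15 lies below 0 in HEK293-GR and above 0 in A549.

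The ratio of protease to inhibitor transcripts also differed with the knockdown in HEK293-GR cells. MMP2 came to 6.62 ± 0.793% of TIMP2 (FPKM ratio, mean ± SD, n = 3) with siIRF2BP2 under vehicle, against 17.3 ± 0.929% with siNON. Under dex it came to 5.80 ± 0.633% with siIRF2BP2, against 16.5 ± 1.88% with siNON. MMP14 went the other way, at 14.4 ± 3.35% of TIMP2 with siIRF2BP2 under vehicle, against 3.76 ± 0.827% with siNON, and at 16 ± 0.529% with siIRF2BP2 under dex, against 3.15 ± 0.772% with siNON. The siIRF2BP2 and siNON libraries did not overlap in either ratio. In siNON cells MMP2 transcripts outnumbered MMP14 transcripts per exon length, and in siIRF2BP2 cells MMP14 outnumbered MMP2. The ratios rest on values already given, among them the MMP2 fall for which that gene was chosen, and carry no test.

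**Figure D3:**
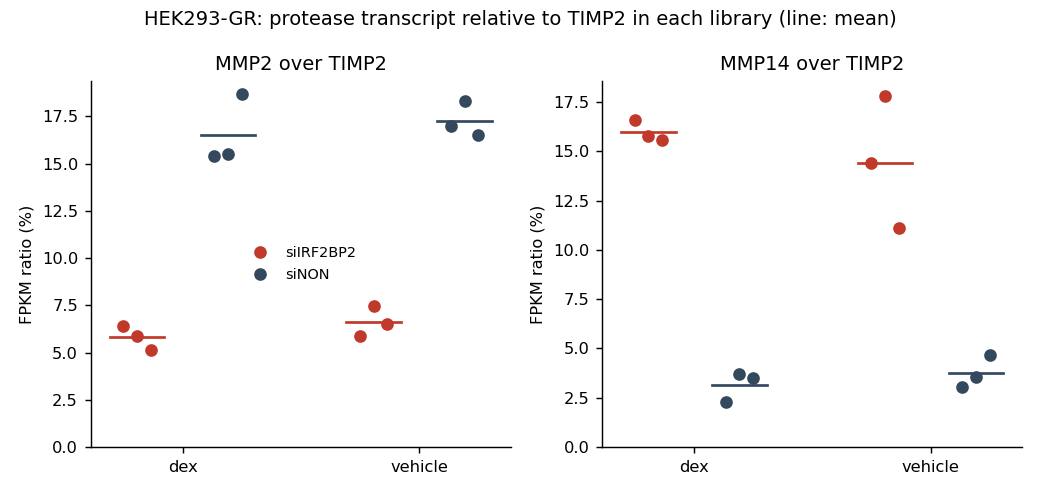
FPKM of MMP2 (left panel) and MMP14 (right panel) as a percentage of TIMP2 FPKM in each HEK293-GR library, with siIRF2BP2 in red and siNON dark, and group means as lines. With siIRF2BP2 the MMP2 ratio lies between 5.14 and 7.47%, under all siNON libraries, and the MMP14 ratio lies between 11.1 and 17.8%, above them.

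Among these genes the dex response in HEK293-GR cells was largest for ADAMTS1, a versican-cutting protease on chromosome 21 from 28208606 to 28217728 (hg19, minus strand). With siIRF2BP2 it had 15.8, 17.2 and 15.3 FPKM under dex, against 58.6, 55.6 and 61.5 FPKM under vehicle. With siNON it had 15.5, 15 and 14.8 FPKM under dex, against 58.9, 66.9 and 55.0 FPKM under vehicle. All dex libraries lay far below all vehicle libraries, at 0.276 of the vehicle level with siIRF2BP2 and 0.253 with siNON. The log2 fold changes were -1.86 ± 0.08 and -1.98 ± 0.08, given without a test because the gene was chosen for them. The difference of the 2 responses, siIRF2BP2 minus siNON, was 0.13 ± 0.11 and did not pass (limma adjusted p = 0.8). ADAMTS1 had 0.311 to 1.45 reads per base and TIMP1 had 0.96 to 1.24, while the densest gene of the table reached 2.83 to 2.99 in each library. Whether such an upper level touched these genes was not tested.

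ADAMTS15, the other gene chosen for its dex response, differed little in HEK293-GR cells, by -0.10 ± 0.14 with siIRF2BP2 and 0.08 ± 0.14 with siNON (log2, limma), and its groups overlapped. Its response lay in A549 cells, described further on.

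Of the 6 members tested for dex with siIRF2BP2, 1 rose and 1 fell, where 10.5% of genes passed in either direction. MMP15 rose by 0.42 ± 0.09 (limma adjusted p = 0.00534), with all dex libraries above all vehicle libraries. TIMP2 fell by 0.35 on the log2 scale (± 0.10 SE, limma adjusted p = 0.0319), also without overlap. The TIMP2 call ended without the filter on low values (limma adjusted p = 0.0725), without the variance trend (limma adjusted p = 0.0702), and without siIRF2BP2 vehicle replicate 1 or 3 or siIRF2BP2 dex replicate 1 or 3 (limma adjusted p = 0.0639 to 0.16). MMP2 had a log2 fold change of -0.45 ± 0.16 and did not pass (limma adjusted p = 0.0981).

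With siNON, 0 of the 6 members tested passed limma, where 20.7% of genes did. At an unadjusted p under 0.05 there were 2, MMP15 at 0.26 ± 0.09 (limma adjusted p = 0.0602) and TIMP3 at -0.19 ± 0.08 (limma adjusted p = 0.117), and the authors' deposited table called 0. MMP15 passed without siNON vehicle replicate 1, at 0.32 (limma adjusted p = 0.0246). TIMP3 passed without siNON vehicle replicate 3, at -0.27 (limma adjusted p = 0.0212), and with median-of-ratios or upper quartile scaling, at -0.22 and -0.24 (limma adjusted p = 0.0452 and 0.0253). TIMP3 had 10.4, 10.9 and 11.0 FPKM under dex with siIRF2BP2, against 12.5, 11.6 and 13.6 FPKM under vehicle, and 9.90, 10.2 and 10.4 FPKM under dex with siNON, against 11.9, 12.6 and 10.3 FPKM under vehicle. The change with siIRF2BP2 was -0.22 ± 0.08 (limma adjusted p = 0.115), and it passed under both scalings.

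A direct test of whether the knockdown altered the dex response called 0 of 8 members, where 0.0128% of genes passed. At an unadjusted p under 0.05 there was 1, TIMP2, with a difference of -0.32 ± 0.14 (siIRF2BP2 minus siNON, limma adjusted p = 0.794). So a TIMP2 or MMP15 response past the threshold with siIRF2BP2 and not with siNON is not shown to differ between them.

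In A549 cells MMP2 and TIMP2 were lower with siIRF2BP2 than with siNON under all 4 treatments. The fall of IRF2BP2 RNA itself was modest there. In the authors' deposited table it stood at 0.635, 0.76 and 0.651 of siNON under dex, TNF and both, and at 0.807 under vehicle. In HEK293-GR cells it stood at 0.522 under dex and 0.558 under vehicle (limma). The A549 libraries are independent of those used to choose MMP2. The pooled FPKM of MMP2, here per genomic span, was 0.029 with siIRF2BP2 and dex, against 0.1 with siNON and dex. Under TNF it was 0.026 with siIRF2BP2, against 0.106 with siNON. Under both agents it was 0.015 with siIRF2BP2, against 0.105 with siNON, and under vehicle 0.027 with siIRF2BP2, against 0.121 with siNON. All 4 siIRF2BP2 columns lay far under all 4 siNON columns, though on 15 to 189 pooled reads. The log2 fold changes in the authors' deposited table were -1.89, -2.09 and -2.81 under dex, TNF and both, and -2.25 under vehicle (authors' FDR 8.06e-10, 4.46e-13, 3.64e-16 and 1.24e-14). On log2 of pooled FPKM plus 0.1 the same differences were -0.63, -0.71 and -0.83, and -0.80 under vehicle.

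TIMP2 had pooled FPKM of 1.68, 1.75, 1.62 and 1.75 with siIRF2BP2 under dex, TNF, both and vehicle, against 3.47, 3.50, 3.22 and 3.37 with siNON. Its pooled level differed little between treatments and was lower with the knockdown in each. The authors' deposited table gave -1.18, -1.08 and -1.09 under dex, TNF and both, and -1.07 under vehicle (FDR 1.47e-36, 3.73e-47, 3.91e-36 and 2.84e-37).

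Of 8 members with enough reads in A549, the authors' deposited table called 1 higher and 2 lower under dex (33.1% of 15946 genes called), 2 higher and 4 lower under TNF (40.6%), 1 higher and 3 lower under both (37.5%), and 1 higher and 4 lower under vehicle (35.8%). MMP1, which passed the read filter only through its siNON columns, is among those called lower under TNF, both and vehicle. Its part in these counts is a description only. A large share of all genes was called in each of these comparisons. In the same comparisons the authors' deposited table called 6 of 9 A549 markers lower and 0 higher under dex, 7 lower and 1 higher under TNF and under both, and 6 lower and 2 higher under vehicle. The part of such broad changes in these results was not tested.

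MMP1 was measured in A549 only, at low level. It had 6, 13, 6 and 5 pooled reads with siIRF2BP2 under dex, TNF, both and vehicle, against 29, 48, 28 and 38 with siNON. The siIRF2BP2 columns were lower in each pair. Log2 fold changes in the authors' deposited table were -1.68 under dex (FDR 0.057), -2.07 under TNF (FDR 6.81e-06), -1.77 under both (FDR 0.0179) and -2.37 under vehicle (FDR 0.000198). With siNON the TNF column was highest, and the authors' deposited table gave 0.83 for TNF over vehicle (FDR 0.061) and -0.95 for dex added to TNF (FDR 0.0431).

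MMP14 in A549 passed only under TNF, where it stood at 0.414 FPKM with siIRF2BP2, against 0.269 with siNON, and the authors' deposited table gave 0.54 (FDR 0.0354). Under dex, both and vehicle its pooled FPKM was 0.409, 0.338 and 0.427 with siIRF2BP2, against 0.342, 0.277 and 0.350 with siNON. All 4 pairs were in the direction of HEK293-GR cells. MMP15 fell with the knockdown under vehicle, to 0.960 FPKM with siIRF2BP2, against 1.31 with siNON (authors' deposited table -0.54, FDR 3.2e-05), and under TNF, to 0.673 against 1.09 (authors' deposited table -0.77, FDR 1.13e-10). Under dex the authors' deposited table gave 0.17 (FDR 0.462) and under both -0.15 (FDR 0.247).

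ADAMTS15 was higher with the knockdown in A549, opposite to HEK293-GR cells. Its pooled FPKM was 1.45, 0.118, 1.28 and 0.5 with siIRF2BP2 under dex, TNF, both and vehicle, against 0.505, 0.057, 0.649 and 0.228 with siNON. Each siIRF2BP2 column was above its siNON partner. The authors' deposited table gave 1.39, 0.97 and 0.95 under dex, TNF and both, and 1.03 under vehicle (FDR 8.7e-24, 0.000104, 2.19e-12 and 1.06e-11). ADAMTS1 had 8 to 22 pooled reads in each A549 column, and no comparison in the authors' deposited table called it. TIMP1 was called in none either, with pooled FPKM of 31.8 to 34.7 with siIRF2BP2 and 33.6 to 37.7 with siNON.

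**Figure D4:**
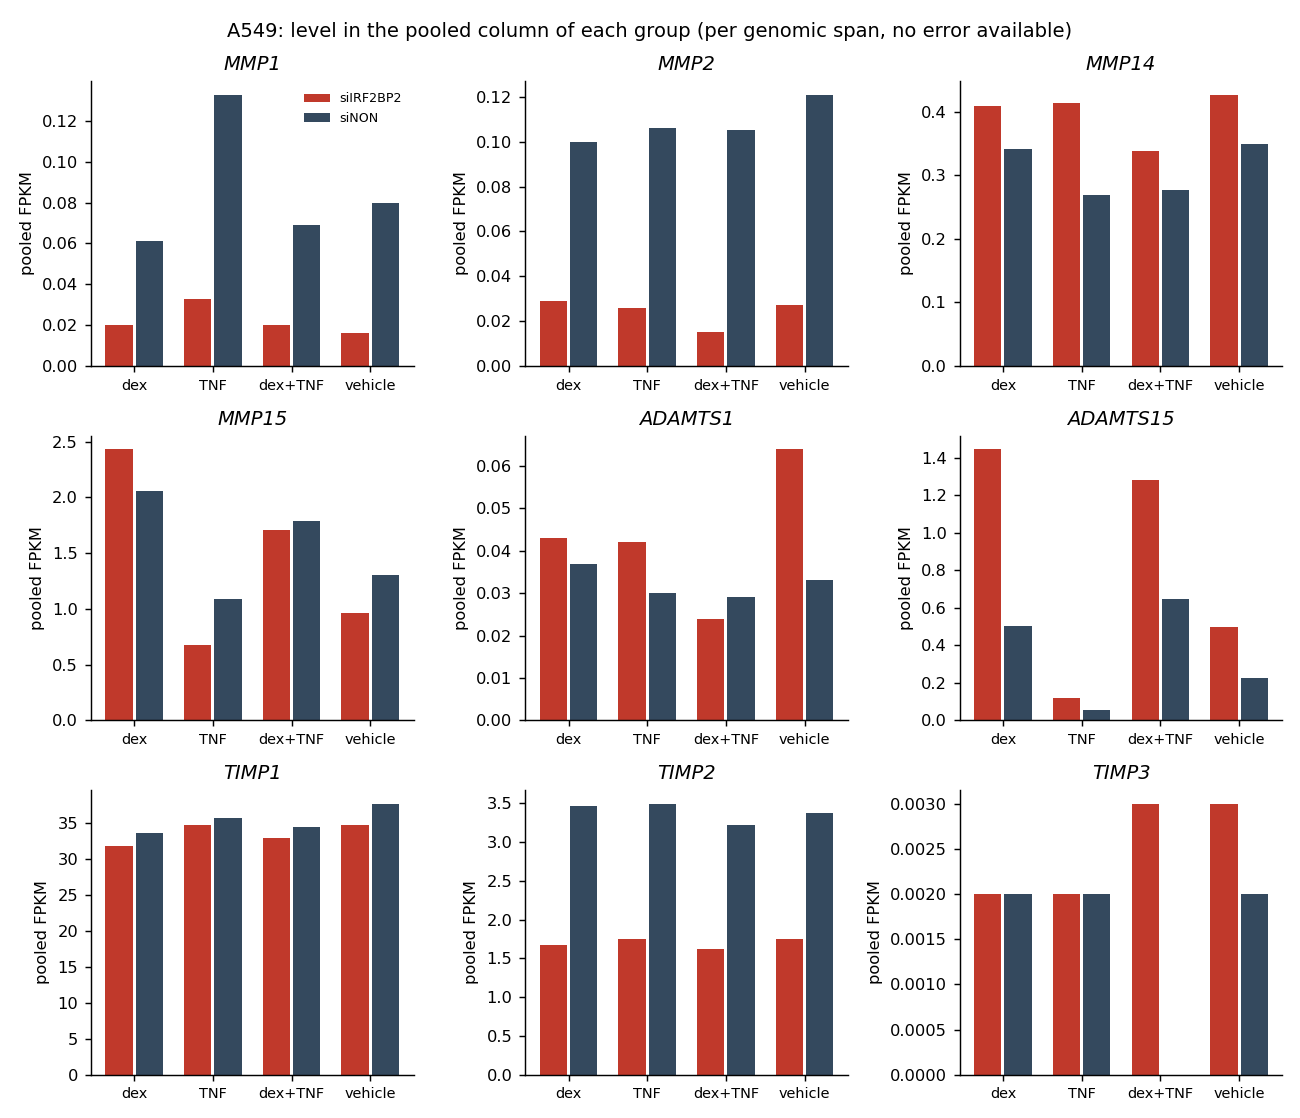
Pooled FPKM per genomic span (bars from 0, no error available) of each gene in A549 under dex, TNF, both and vehicle, siIRF2BP2 in red and siNON dark. ADAMTS15 is high under dex and under both and low under TNF, MMP15 is high under dex, and TIMP2 is lower with siIRF2BP2 under every treatment.

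In A549 the treatment responses of these genes lay mainly in ADAMTS15 and MMP15. ADAMTS15 with siIRF2BP2 stood at 1.45 FPKM under dex and 1.28 under both, against 0.5 under vehicle, and with siNON at 0.505 under dex and 0.649 under both, against 0.228 under vehicle. Log2 fold changes in the authors' deposited table for dex over vehicle were 1.56 with siIRF2BP2 and 1.19 with siNON, and for dex added to TNF 3.45 and 3.47, as a description. The response to TNF alone, which was not used in the choice, was a fall. ADAMTS15 stood at 0.118 FPKM with siIRF2BP2 and TNF, against 0.5 under vehicle, and at 0.057 with siNON and TNF, against 0.228 under vehicle. The authors' deposited table gave -1.95 with siIRF2BP2 (FDR 6.22e-37) and -1.89 with siNON (FDR 2.79e-18). TNF added to dex gave no call for ADAMTS15, at -0.06 with siIRF2BP2 (FDR 0.997) and 0.39 with siNON (FDR 0.149) in the authors' deposited table. These comparisons share their columns, so they are not independent of each other.

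MMP15 rose with dex in A549 under each condition tested. With siIRF2BP2 it stood at 2.43 FPKM under dex, 0.673 under TNF and 1.71 under both, against 0.960 under vehicle. With siNON it stood at 2.05 under dex, 1.09 under TNF and 1.79 under both, against 1.31 under vehicle. The authors' deposited table gave 1.39 with siIRF2BP2 (FDR 1.1e-59) and 0.67 with siNON (FDR 0.00032) for dex over vehicle. For dex added to TNF the authors' deposited table gave 1.34 with siIRF2BP2 (FDR 1.96e-32) and 0.72 with siNON (FDR 7.41e-13). The dex response was larger with siIRF2BP2 in both settings, and that difference was not tested because the columns are pooled.

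The members called for the A549 treatments are set here beside the share of all genes called in either direction. Whether the counts differ from that share was not tested. For dex over vehicle the authors' deposited table called 1 of 6 members with siIRF2BP2 (25.1% of genes) and 1 of 6 with siNON (11.0%), MMP15 each time. For TNF over vehicle the authors' deposited table called 2 of 8 with siIRF2BP2 (39.0%), the falls of ADAMTS15 and MMP15, and 1 of 8 with siNON (20.4%), the fall of ADAMTS15. For both agents over vehicle the authors' deposited table called 1 of 6 with each pool (43.2% and 22.1%), MMP15, at 0.95 with siIRF2BP2 and 0.56 with siNON. For dex added to TNF the authors' deposited table called 1 of 6 with siIRF2BP2 (25.5%), MMP15, and 2 of 6 with siNON (17.4%), MMP15 and MMP1. For TNF added to dex the authors' deposited table called 1 of 8 with siIRF2BP2 (31.6%), MMP15 at -0.41 (FDR 2.15e-05), and 0 of 8 with siNON (10.9%), where 1 had an unadjusted p under 0.05.

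The wider families behaved unevenly in HEK293-GR cells. Of 19 other MMPs, 5 had enough reads. With the knockdown 0 rose and 2 fell under dex, where 39.7% of all genes were called. Under vehicle 0 rose and 1 fell, where 15.5% were. MMP17, a membrane-anchored protease, fell with the knockdown by 1.13 on the log2 scale under dex (limma adjusted p = 0.00175; 1.58 FPKM with siIRF2BP2, 3.49 with siNON) and by 0.86 under vehicle (limma adjusted p = 0.02), and rose with dex by 1.18 with siIRF2BP2 and 1.45 with siNON (limma adjusted p = 0.00183 and 0.000213). MMP11 fell by 0.39 with the knockdown under dex (limma adjusted p = 0.0444), and MMP13, a collagenase, fell by 0.78 with dex in siNON cells (limma adjusted p = 0.0245), at 0.107 FPKM under dex and 0.244 under vehicle. In A549 MMP17 was lower with the knockdown in the authors' deposited table too, at -0.59, -0.96 and -0.70 under dex, TNF and both and -0.49 under vehicle. MMP7 was higher there, at 0.36, 0.57, 0.45 and 0.39 in the same order, and MMP11 was higher under vehicle, at 1.56. Of 8 other MMPs with enough reads in A549, 2 were called higher and 3 lower under dex (33.1% of all genes called). The counts were 1 and 2 under TNF (40.6%), 2 and 2 under both (37.5%) and 2 and 2 under vehicle (35.8%).

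Of 17 other ADAMTS genes, 15 were tested in HEK293-GR cells. With dex 2 rose and 1 fell in siIRF2BP2 cells, where 10.5% of all genes were called, and 2 rose and 5 fell in siNON cells, where 20.7% were. ADAMTS8 rose to 10.9 FPKM under dex with siIRF2BP2, against 3.1 under vehicle, and to 17.8 FPKM under dex with siNON, against 3.8 under vehicle (log2 1.79 ± 0.10 and 2.20 ± 0.10, limma adjusted p = 3.4e-09 and 1.86e-10). ADAMTS9 rose by 1.30 ± 0.12 and 1.20 ± 0.12 (limma adjusted p = 1.07e-06 and 2.17e-06). ADAMTS18 fell by 0.78 with siIRF2BP2 and fell by 1.52 with siNON (limma adjusted p = 0.00909 and 1.42e-05), and ADAMTS3 fell by 0.62 with siNON (limma adjusted p = 0.0079). The family thus moved in both directions with dex. With the knockdown under dex ADAMTS8 fell by 0.70 (limma adjusted p = 0.000268). With the knockdown, 4 of the 15 rose and 2 fell under dex, and 1 rose and 1 fell under vehicle, shares close to the 39.7% and 15.5% of all genes called.

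Of 13 sheddases and activators tested, ADAM9 fell with the knockdown by 0.57 under vehicle in HEK293-GR cells (limma adjusted p = 0.00185; 11.3 FPKM with siIRF2BP2, 17.0 with siNON). In A549 the authors' deposited table gave -1.04, -1.25 and -0.98 for ADAM9 under dex, TNF and both, and -1.12 under vehicle. ADAM19 was higher there, at 0.56 under TNF and 0.79 under vehicle. Of 16 genes of the list with enough reads in A549, 4 were called higher and 4 lower under dex (33.1% of all genes called). The counts were 3 and 4 under TNF (40.6%), 4 and 3 under both (37.5%) and 3 and 3 under vehicle (35.8%). PCSK5, a proprotein convertase, rose with dex by 0.70 with each pool in HEK293-GR cells (limma adjusted p = 7.61e-05 with siIRF2BP2 and 5.56e-05 with siNON). In this list 2 rose and 3 fell with the knockdown under dex, where 39.7% of all genes were called, and 1 rose and 2 fell under vehicle, where 15.5% were. Of 9 other inhibitors tested, SPOCK1, a proteoglycan with inhibitor domains, rose with dex by 0.83 with siIRF2BP2 and 1.01 with siNON (limma adjusted p = 8.05e-05 and 7.68e-06). With the knockdown 0 rose and 2 fell under dex, beside 39.7% of all genes called, and under vehicle limma called 0, beside 15.5%.

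Of 26 matrix substrates tested in HEK293-GR cells, 3 rose and 13 fell with the knockdown under dex, where 22.4% of genes rose and 17.3% fell, and 3 rose and 4 fell under vehicle, where 8.0% and 7.48% did. VCAN (versican), a substrate of ADAMTS1 and ADAMTS15, had 8.31 FPKM with siIRF2BP2 and dex, 4.69 with siNON and dex, 13.8 with siIRF2BP2 and vehicle and 9.88 with siNON and vehicle. It rose with the knockdown by 0.81 ± 0.09 under dex and 0.48 ± 0.09 under vehicle (limma adjusted p = 2.23e-05 and 0.00267). In A549 VCAN was lower with the knockdown under dex, TNF and both. The authors' deposited table gave log2 values of -0.64, -0.76 and -0.64 (authors' FDR 3.64e-10, 5.64e-18 and 3.29e-14). Under A549 vehicle the pooled levels were closer, at 4.31 FPKM with siIRF2BP2, against 4.88 with siNON. VCAN was not among the 4 substrates with the smallest FDR in that vehicle comparison. In HEK293-GR cells VCAN fell with dex by 0.72 with siIRF2BP2 and 1.06 with siNON (limma adjusted p = 2.2e-05 and 1.95e-07). With dex, then, transcripts of ADAMTS1, chosen for that fall, and of VCAN were both lower. Other substrates went the other way. Of the 26, 3 rose and 3 fell with dex in siIRF2BP2 cells, where 10.5% of all genes were called. In siNON cells 7 rose and 2 fell, where 20.7% were. THBS1 rose with dex by 1.58 with siIRF2BP2 and 1.53 with siNON (limma adjusted p = 1.87e-06 and 2.02e-06). COL12A1, a fibril-associated collagen, rose with the knockdown by 1.18 under dex and 1.33 under vehicle (limma adjusted p = 4.63e-05 and 2.49e-05). COL6A1 and COL6A2, chains of collagen VI, fell with the knockdown by 0.77 and 0.92 under dex (limma adjusted p = 0.000214 and 0.000604) and by 0.45 and 0.76 under vehicle (limma adjusted p = 0.0139 and 0.00502). HSPG2, the basement membrane proteoglycan perlecan, rose with dex to 6.08 FPKM with siIRF2BP2, against 2.35 under vehicle, and to 10.6 FPKM with siNON, against 3.34 under vehicle (limma adjusted p = 4.62e-05 and 2.78e-06).

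The genes most alike to 3 of the members were found by Pearson's r of log2 FPKM over the 12 HEK293-GR libraries, among 13121 genes. For MMP2 they were TSPAN5 (r = 0.99), SETD8 (0.988), KCNMB4 (0.988), SERTAD2 (0.985) and GPR176 (0.985). For ADAMTS1 they were PCDH19 (0.997), HOXA5 (0.996), SOX4 (0.996), HOXA9 (0.995) and COLEC12 (0.995). For TIMP3 they were PLAT (0.963), TMOD1 (0.949), TNC (0.948), SMAD3 (0.946) and EXT1 (0.946). The libraries fall into 4 groups, so these values mainly rank genes that share the group pattern.

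Like most genes of the table, these 9 had no IRF2BP2 peak close to their starts. The authors listed 1400 peaks under dex and 1108 under vehicle, and 0 of the 9 genes had one within 100 kb of its start, where 10.1% of 25689 genes had one under dex and 7.99% under vehicle. The nearest lay 101 kb from the start of TIMP2 under dex, against 367 kb under vehicle, and 222 kb from MMP14 under both. For MMP2 the nearest peak was 3480 kb away under dex and 1430 kb under vehicle, and for ADAMTS1 721 kb under dex and 2450 kb under vehicle.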

How the data were processed

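RNA was measured in 2 cell lines and IRF2BP2 binding in 1. Per the submitters' processing notes, the tools for RNA were Trimmomatic 0.33, TopHat2, Bowtie2, FastQC, edgeR and HOMER, and those for ChIP were bedtools, HOMER 4.10.3, FastQC and Bowtie 0.12.9. The build was hg19, and no order or role is given. Expression values are FPKM, per the file headers, on exon length for HEK293-GR and on genomic span for 98.9% of A549 transcripts, where the authors pooled replicates. The log2 fold changes and the p-value and FDR columns were deposited by the authors, with the test not stated. The score deposited for every peak is constant, so only positions were used.

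In HEK293-GR the 15594 genes that had 10 or more reads in 3 libraries were fitted with limma 3.58.1 (R 4.3.3, trend) on log2 of FPKM plus 0.1. The fit of 12 libraries left 8 residual degrees of freedom, and p-values were adjusted over all genes by Benjamini-Hochberg with a threshold of 0.05. The fold changes are on that scale and understate low genes. For A549 the transcript with most reads was used, for genes with at least 10 reads in 3 pooled columns (15946). Libraries of a group correlated at 0.988 to 0.996. P-values measure the spread between these libraries, which may be technical in part. The members and the lists of other genes were chosen with earlier results of these data known. Named genes were all members and, per list and comparison, at most 4 called genes with the smallest p. Alternatives tried were the pseudocount, filter, scaling, variance trend, replicate block, each library left out and the authors' comparison.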

Additional observations from a re-analysis of the deposited data

Results flagged for a closer look

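ADAMTS15 differed in direction between the lines. With siIRF2BP2 over siNON under dex its log2 fold change was -0.49 in HEK293-GR cells (limma) and 1.39 in A549 (the authors' deposited table). Under vehicle it was -0.31 in HEK293-GR cells, which did not pass, and 1.03 in A549 (the authors' deposited table). Every HEK293-GR siIRF2BP2 library was below every siNON library of the same treatment, while the A549 pooled columns stood the other way round. The difference between the lines was not tested, since the A549 columns are pooled and the tables were normalised separately.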

How the results depend on the processing

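In HEK293-GR cells the knockdown calls of MMP14, MMP15 and TIMP2 held under every alternative run, the authors' comparison included, with 3 to 4 members called under vehicle and under dex. For dex with siNON the count of 0 became 1 with median-of-ratios or upper quartile scaling (TIMP3), and ranged from 0 to 1 when single libraries were left out. For dex with siIRF2BP2 the count of 2 became 1 without the filter, without the trend and with the replicate block, where TIMP2 was lost (limma adjusted p = 0.0605), became 3 with median-of-ratios or upper quartile scaling (TIMP3 added), and ranged from 1 to 2 when single libraries were left out. The replicate numbers did not pair the libraries: deviations of same-numbered libraries correlated at 0.261, -0.264 and -0.377 in the knockdown under vehicle. With an added 1.5-fold minimum in A549, members called by the authors' deposited table became 0 for both agents over vehicle with siNON, 1 for TNF over vehicle with siIRF2BP2 and 0 for TNF added to dex with siIRF2BP2. The values that changed sign were small, and none was called where a test was given. When single libraries were left out, ADAMTS1 with the knockdown under vehicle ranged from -0.10 to 0.04, ADAMTS15 with dex from -0.18 to 0.01 in siIRF2BP2 cells and from -0.02 to 0.22 in siNON cells, TIMP1 with dex from 0 to 0.16 in siIRF2BP2 cells and from -0.01 to 0.10 in siNON cells, and TIMP2 with dex in siNON cells from -0.14 to 0.02. The difference of responses ranged from -0.12 to 0.18 for MMP14, from -0.05 to 0.11 for TIMP1 and from -0.09 to 0.05 for TIMP3. MMP14's was 0 with a pseudocount of 1, and TIMP1 with dex in siNON cells was -0.01 with upper quartile scaling. The cause was not tested. MMP14, MMP2 and all A549 values of MMP1 and ADAMTS1 rest on few reads, which limits their precision.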

Other observations

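Other MMPs moved in both directions with TNF in A549. Of 8 with enough reads, the authors' deposited table called 2 higher and 3 lower with siIRF2BP2 (39.0% of all genes called) and 2 higher and 2 lower with siNON (20.4%). In the authors' deposited table MMP7 (matrilysin, an epithelial protease) rose with TNF by 0.96 on the log2 scale with siIRF2BP2 (17.2 FPKM, against 9.58 under vehicle) and by 0.80 with siNON (10.9 FPKM, against 6.63 under vehicle). The authors' deposited table gave -0.57 and -0.46 for MMP7 when dex was added to TNF. MMP10 (stromelysin) gave 1.66 with TNF in siNON cells and -1.47 when dex was added, in the authors' deposited table, at 0.130 FPKM under TNF and 0.043 under vehicle. MMP17 gave -1.35 with siIRF2BP2 and -0.87 with siNON, and MMP28 gave -1.33 and -0.88, for TNF over vehicle in the authors' deposited table. MMP25, a membrane-anchored protease, gave 2.55 for dex over vehicle with siNON in the authors' deposited table, at 0.073 FPKM against 0.013. With siIRF2BP2 it was not called for dex over vehicle, at 0.059 FPKM against 0.036. For both agents over vehicle MMP25 gave 3.38 with siIRF2BP2 and 4.61 with siNON in the authors' deposited table, at 0.350 FPKM against 0.036 and at 0.301 FPKM against 0.013, while under TNF alone it stood at 0.032 FPKM with siIRF2BP2 and 0.033 FPKM with siNON. ADAM17, the enzyme that sheds TNF from the cell surface, rose with TNF by 0.85 with each pool in the authors' deposited table.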
